A study of Mus musculus with 207 samples.

Results

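The proteasome subunit genes of the mouse cecum were described here as the genes whose annotated symbol begins with Psm, a letter from a to g and a digit, without Psmb8 and Psmb9. The rule used names only and took 47 of the 19057 named genes of the array, read by 83 of its 45281 probes. It also took Psmc3ip and Psme3ip1, which encode proteins that bind a proteasome component and are no subunits. Each of 207 mice of the Collaborative Cross (CC) breeding population gave cecal RNA for 1 Illumina Mouse WG-6 v2 BeadChip array. By the study's methods these adults came from crosses among NZO/HILtJ, NOD/LtJ, WSB/EiJ, A/J, PWK/PhJ, 129S1/SvImJ, CAST/EiJ and C57BL/6J that were not yet fully inbred, and each line was caged apart from the others. Members of this population went through tests of behaviour and physiology, and the antibiotics of the study were given to other mice. The RNA came from cells released from the cecum with EDTA. Of 205 mice with a clear label, 49.3% were female, and the 2 of unclear sex entered no comparison. The first number of the animal label was read as the breeding line, which gave 92 lines with a female and a male (185 mice). The labels do not state this reading, and every line result rests on it.

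The proteasome is the protease that degrades proteins marked with ubiquitin. Its core is a barrel of alpha and beta rings with the cutting sites inside. A regulatory particle caps the core, where ATPases unfold the substrate and non-ATPase subunits bind it and remove its ubiquitin. In inflamed tissue, interferon exchanges cutting subunits for inducible ones and raises the activator caps Psme1 and Psme2. When proteasome capacity falls short, the transcription factor Nfe2l1 raises subunit genes together.

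Values are log2 intensities, with intensities under 16 set to 16. Array medians ran from 41.5 to 103.7 in linear intensity. On 8 arrays (6 of females, 2 of males) some values lay below 0, and values that these arrays moved are given with and without them for the main results (205 and 197 mice). The animal labels fall into a low and a high number series (115 and 90 mice used), whose meaning the sources used here do not give. All 10 markers of epithelium were above background, as were 9 of 10 measured smooth muscle markers and all 8 of fibroblasts. In such tissue RNA, fewer cells of a type and less RNA per cell cannot be told apart. A probe counted as above background when its mean lay over 6.33, a level that 95% of 1543 probes for smell, pheromone and taste receptors did not exceed. Of all probes, 44.8% did.

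Most proteasome genes were above background in the cecum. Of the 47 genes, 39 had a representing probe (the brightest of the gene) above background, and 64 of the 83 probes were. Levels of different probes are not ranked here, since a probe's level depends on its own affinity. Among the core genes, all 7 of the beta ring and 4 of 7 of the alpha ring were above background. Psmb5, Psmb6 and Psmb7 encode the cutting subunits of the core. Psmb5 had a lowest, median and highest mouse of 4, 7.79 and 9.26 (mean 7.71 ± 0.80, SD, n = 205). The lowest mouse was at the floor, and without the 8 arrays the lowest was 6.61. Psmb7 ran from 6.49 through a median of 10.93 to 12.89, and without the 8 arrays its lowest mouse was 9.86. The alpha ring genes Psma1, Psma3 and Psma6 were at background, with means of 6.03, 5.99 and 6.12, although every core contains these subunits. Each had 1 probe, so no other probe could be set beside it.

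In the regulatory particle, all 6 ATPase genes and 9 of 11 non-ATPase genes were above background. Psmc2, an ATPase of the ring, had a lowest, median and highest mouse of 11.01, 11.81 and 12.61. Psmd4, the subunit that binds ubiquitin chains, had 11.14, 12.02 and 13.33. The mice thus spanned less on the Psmc2 probe than on that of Psmc5, described below. Psmd2 and Psmd3, scaffold subunits of base and lid, were not above background on either of their probes (brighter means 6.30 and 6.06). The 3 chaperones of regulatory particle assembly (Psmd5, Psmd9, Psmd10) and all 4 activators were above background, as were 3 of the 4 core assembly chaperones. Psmg4 was not (6.17). The tissue-bound core subunits were at background, with means of 6.33 for Psma8 of the testis and 6.11 for Psmb11 of the thymus. The rule found no probe under the name Psmf1, the inhibitor gene, which was not analysed here.

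**Figure D1:**
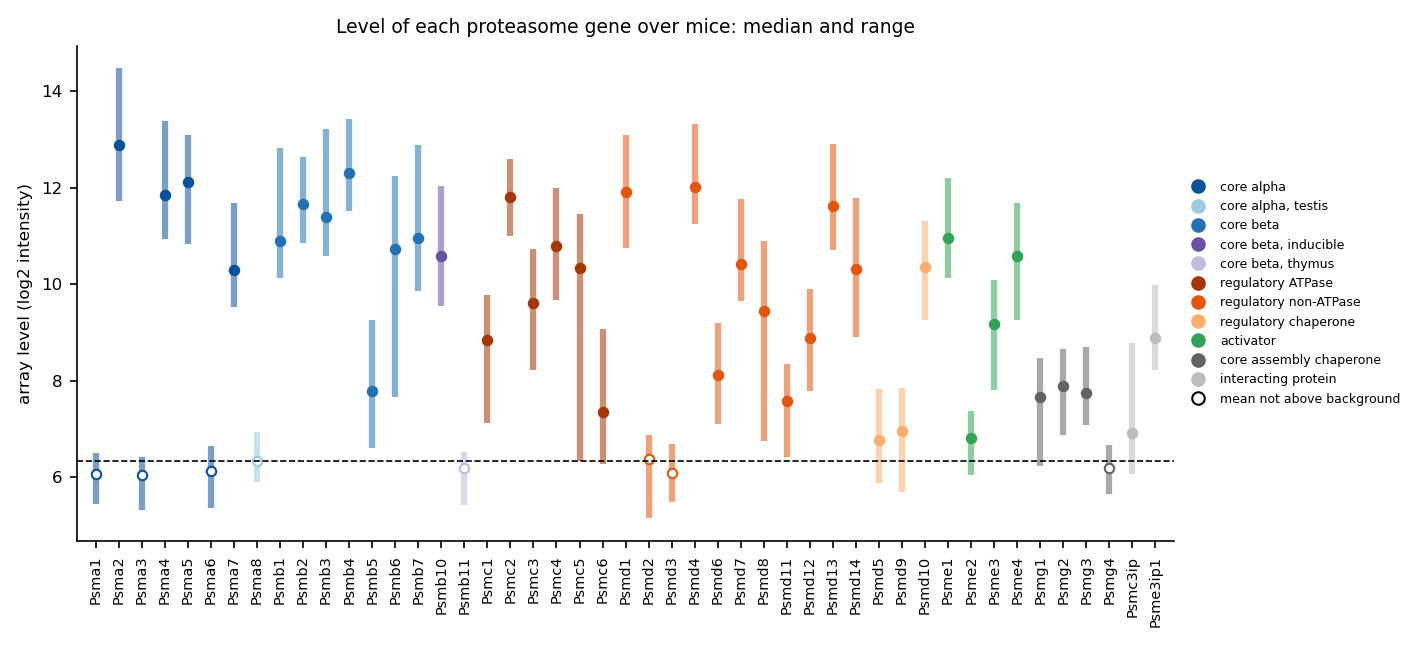
Log2 array level of each gene on its brightest probe over 197 mice, without the 8 arrays with values below 0. Points are medians, bars run from the lowest to the highest mouse, colours mark roles, and open points lie where the mean was not above the dashed background of 6.33. The bars of Psmb6, Psmc5 and Psmd8 are the longest among the ring and lid subunits shown.

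Between breeding lines, 5 of the 47 genes differed, and the rest of the proteasome genes did not pass the test in the reported setting. They were the lid subunit Psmd8, the ATPase Psmc5, the core subunit Psmb6, the lid subunit Psmd12 and Psmc3ip, whose product works in meiotic recombination. The line intraclass correlation (ICC) says how alike mice of a line were: near 1, mice within a line were almost equal, and near 0, a shared line made them no more alike. In the F-test of line with Benjamini-Hochberg adjustment over all 45281 probes, 6 of the 83 probes were called at an adjusted p under 0.05, beside 5.74% of all probes. Of the 64 above background, 6 were called, beside 12.1% of all probes above background. A line ICC of 0.3 or more was found for 5 of the 83, beside 5.06% of all. The members thus had line effects about as often as probes in general. Their median line ICC above background was 0.0479, beside 0.0747 for all probes above background. Without the 8 arrays 10 of the 83 were called (10.2% of all probes), and with 10 principal components removed 21 were (18.1% of all), and each time the 6 probes were among them. Among the probes added was that of the core assembly chaperone Psmg1, with a line ICC of 0.176 (adjusted p = 0.317), and 0.446 without the 8 arrays (adjusted p = 0.000223). It also passed with quantile normalization, with the 5th percentile subtracted and with 10 principal components removed (adjusted p = 0.0114, 0.0001 and 2.65e-05). A probe of the related chaperone Psmg2 had 0.0997, and 0.388 without the 8 arrays (adjusted p = 0.00217). The other 2 probes added without these arrays were of Psmd9 (0.294) and Psmd7 (0.283). Of the 15 probes added with 10 principal components removed, those of Psmb5 and Psmd9 had the highest line ICCs. These were 0.499 and 0.495 (F-test adjusted p = 3.48e-06 and 4.4e-06), beside 0.00533 and 0.0502 with all components kept. The F-test in this setting did not count the degrees of freedom of the removed components, which limits its calls and p-values. The study's methods removed probes over SNPs of the founders before mapping. All 45281 probes of the deposited values were kept here, without that filter. Which of them lie over such SNPs was not analysed, so the part of such SNPs in these line effects was not tested.

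**Figure D2:**
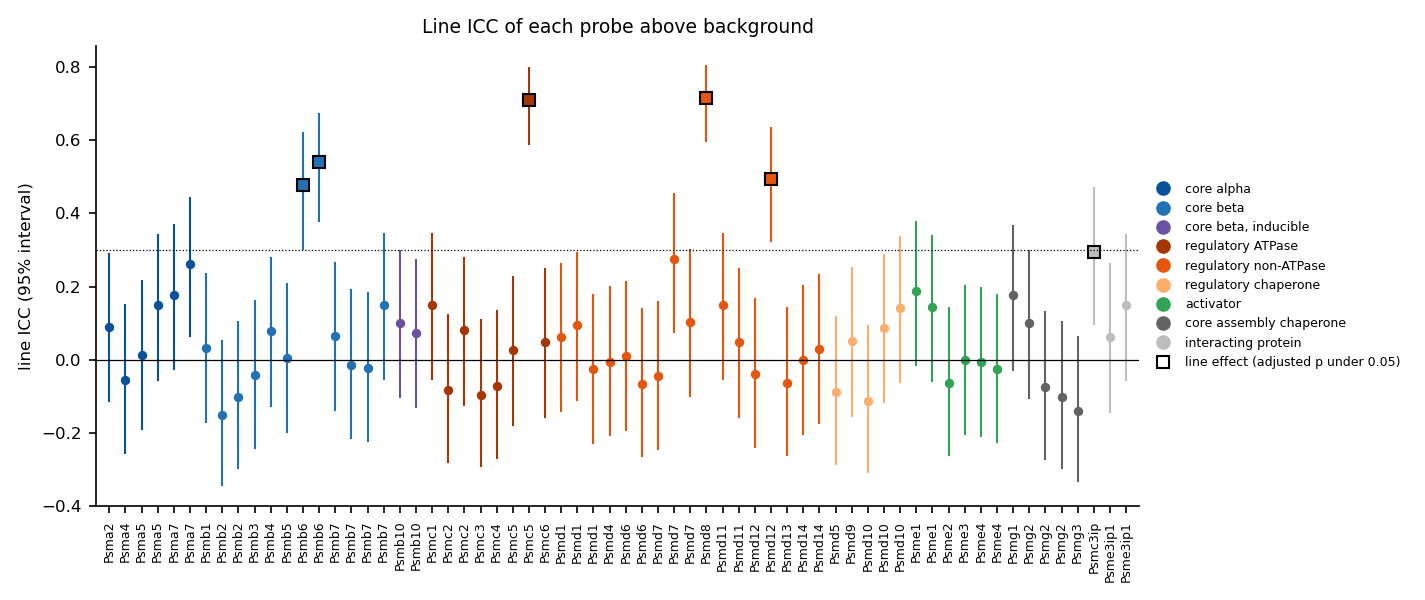
Line ICC of each probe above background, with its 95% interval over 92 lines and coloured by role. Squares mark the 6 probes with a line effect, the dotted line stands at 0.3, and the intervals of most other probes include 0.

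Psmd8 and Psmc5 had the highest line ICCs among the members, and which came first depended on the setting. On the brighter Psmd8 probe the mice ran from 6.53 through a median of 9.46 to 11.62, and from 6.75 to 10.90 without the 8 arrays. The mice fell into a lower and an upper group, with 67 of 205 below 8.5 and 8 within 0.25 of that level, which was chosen after the values were plotted. Both sexes lay below it in 23 of the 92 lines and above it in 55, and they lay on different sides in 14. Among the 85 lines without any of the 8 arrays, the female and male of the lowest had 6.75 and 7.73, and those of the highest 10.90 and 10.53. Female and male of a line had a Pearson's r of 0.727 and a Spearman's rho of 0.721 over 92 lines. The line ICC was 0.715 (95% interval 0.599 to 0.802), with an adjusted p of 2.33e-13 in the F-test, and 0.746 and 0.651 within the low and the high number series. Psmd8 lies on chromosome 7 of GRCm38.p6 (RefSeq, as for all positions here) from 29174187 to 29180673. Its other probe was at background, with a mean of 6.05 and a line ICC of -0.0783.

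Psmc5 passed the test of line on 1 of its 2 probes. The gene encodes an ATPase of the base and lies on chromosome 11 from 106256185 to 106263112. On the brighter probe the mice ran from 6.34 through a median of 10.33 to 11.47. A lower group stood clear of the others, with 25 of 205 mice below 8.2 and 1 within 0.25 of that level, chosen in the same way. Both sexes lay below it in 8 lines and above it in 77, with 7 lines on different sides. Female and male of a line had a Pearson's r of 0.711 but a Spearman's rho of 0.440 over 92 lines. The line ICC was 0.709 (0.591 to 0.797, F-test adjusted p = 4.73e-13), and 0.699 and 0.721 within the low and the high number series. The other probe, also above background, ran from 4 through 9.19 to 10.25, and from 6.89 without the 8 arrays. It had a line ICC of 0.0257 (-0.177 to 0.227, adjusted p = 0.761), which was 0.412 with 10 principal components removed (adjusted p = 0.000242). The r between both probes over the mice was 0.189.

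Psmb6 differed between lines on both of its probes. It encodes the core subunit with the caspase-like site and lies on chromosome 11 from 70525324 to 70527858. On the brighter probe the mice ran from 7.67 through a median of 10.74 to 12.26, and on the other from 6.83 through 10.71 to 12.23. The lower tail held 22 and 25 of the 205 mice, respectively, below a level of 9. On the brighter probe both sexes lay below it in 4 lines and above it in 80, with 8 on different sides, and on the other in 5, 79 and 8. Most lines with a low mouse thus had a sex on either side. Female and male of a line had a Pearson's r of 0.503 and a Spearman's rho of 0.359 on the brighter probe. These were 0.579 and 0.427 on the other. Among the 85 lines without any of the 8 arrays, the female and male of the lowest had 8.30 and 7.67 on the brighter probe, and those of the highest 11.76 and 11.41. The line ICCs were 0.477 (0.303 to 0.620, F-test adjusted p = 3.54e-05) and 0.541 (0.380 to 0.671, F-test adjusted p = 8.49e-07). Over the mice the 2 probes had an r of 0.980. Within the low and the high number series the ICC of the brighter probe was 0.403 and 0.531.

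Psmd12, a scaffold subunit of the lid on chromosome 11 from 107479528 to 107498036, had a smaller spread. On the brighter probe the mice ran from 7.78 through a median of 8.88 to 9.91, with no separate groups in the plot. The line ICC was 0.494 (0.324 to 0.634, F-test adjusted p = 1.38e-05). It was 0.685 in the high number series and 0.310 in the low series, where it did not pass (adjusted p = 0.217). The difference between the series was not tested. The other probe, also above background, ran from 7.41 through 8.41 to 9.38 and had a line ICC of -0.0382 (-0.238 to 0.166). Psmc3ip ran from 4 (6.07 without the 8 arrays) through 6.90 to 8.79, near background, and its line ICC of 0.295 (0.0986 to 0.470) had an F-test adjusted p of 0.0363. Its ICC was 0.537 without the 8 arrays and 0.0889 in the high series alone, where it did not pass (adjusted p = 0.686). Genes like it in line means lay on chromosome 11 in 3 of 20 cases, by the measure described next and with the 8 arrays kept. These arrays moved its likenesses: r was 0.638 for Rflnb, 0.581 for Brip1os and 0.560 for Cdc34. Without the 8 arrays these were 0.529, 0.419 and 0.335. The count was not taken without them, so it is not set against those of the other genes.

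**Figure D3:**
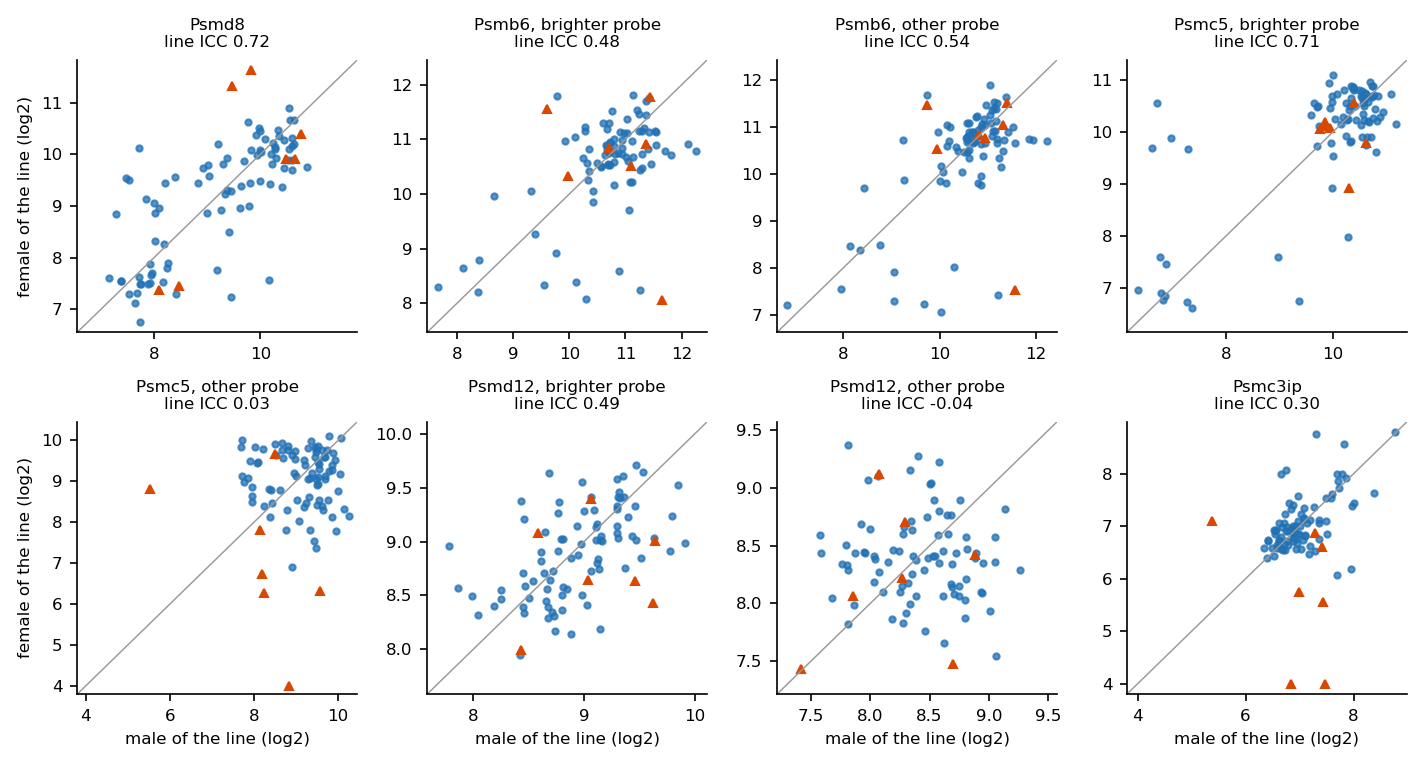
Female against male log2 level of each of the 92 lines for the probes with a line effect and for the other probes of Psmc5 and Psmd12 above background. Each point is a line (means where a sex had several mice), triangles are lines with an array that had values below 0, and the grey line marks equal levels. On Psmd8 and on the brighter Psmc5 probe both sexes of most lines lie in the same group, while the other Psmc5 and Psmd12 probes form clouds.

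For Psmd8, Psmb6 and the brighter probes of Psmc5 and Psmd12, the genes most like them in line means lay mostly on their own chromosome. The likeness is the Pearson's r of line means over 92 lines, given as a description, since the means share arrays and sexes of a line. Among the 20 genes most like the Psmd8 probe, 16 were on chromosome 7, which holds 7.69% of the 11387 placed genes above background. The first was Mrps12, a mitochondrial ribosomal protein gene 0.432 Mb away (r = 0.934), followed by Fcgbp, a goblet cell mucus protein gene 1.05 Mb away (r = 0.766). This Fcgbp probe was near background, with a mean of 6.56. For the brighter Psmc5 probe all 20 were on chromosome 11 (8.33% of the genes), led by the chromatin remodelling gene Bptf at 0.77 Mb (r = 0.740) and by Taco1 at 0.182 Mb with the opposite sign (r = -0.697). For the other Psmc5 probe 1 of 20 was. The Taco1 probe was also near background, with a mean of 6.76. For both Psmb6 probes 19 of 20 were on chromosome 11, led by the kinesin gene Kif1c at 0.173 Mb (r = 0.699 on the brighter probe). For the brighter Psmd12 probe 16 of 20 were on that chromosome, and for its other probe 1 of 20. The latter was most like Fh1 (r = 0.804) and 2 other lid subunit genes, Psmd6 (0.784) and Psmd14 (0.771). Without the 8 arrays (85 lines) these values were 0.935 for Mrps12, 0.769 for Bptf, 0.707 for Kif1c and 0.855 for Fh1.

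Of the 5 genes with a line effect, 4 lay on chromosome 11, which holds 9 of the 47 members. Of the 38 members elsewhere, 1 had a line effect. Over all genes above background, 14.4% of 949 on chromosome 11 had a probe with a line effect, and 16.5% of 10438 on the other chromosomes. Psmc5 and Psmd12 lie 1.22 Mb apart, and their brighter probes had an r of 0.298 over the mice. Psmb6 lies 35.7 Mb from Psmc5 and had an r of 0.215 with it. The highest r between called genes were 0.407 for Psmb6 with Psmd12, 0.367 for Psmc3ip with Psmd12 and 0.330 for Psmb6 with Psmc3ip. Psmd8, on chromosome 7, had an r between 0.00756 and 0.135 with the called probes of chromosome 11.

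The promoter windows of the 4 subunit genes with a line effect, 250 bases before to 50 after the RefSeq start on GRCm38.p6, are shown so that the reference sequence behind these members can be read. Founder alleles were not analysed here. Of the 47 members, 39 had a window. Searched on both strands and set in capitals were the antioxidant response element bound by Nfe2l1 and Nfe2l2 (TGACNNNGC), the CCAAT box (CCAAT) and letters of the interferon-stimulated response element (GAAANNGAA), here called the interferon element. In the windows shown, no match overlapped a match of another motif. The Psmb6 window (chr11:70525107-70525406, plus strand) held a response element from base 242, close to the start. That of Psmd12 (chr11:107479278-107479577, plus strand) held one on the opposite strand from base 4. The windows of Psmc5 (chr11:106255935-106256234, plus strand) and Psmd8 (chr7:29180624-29180923, minus strand) held none of these letters.
Psmb6 promoter: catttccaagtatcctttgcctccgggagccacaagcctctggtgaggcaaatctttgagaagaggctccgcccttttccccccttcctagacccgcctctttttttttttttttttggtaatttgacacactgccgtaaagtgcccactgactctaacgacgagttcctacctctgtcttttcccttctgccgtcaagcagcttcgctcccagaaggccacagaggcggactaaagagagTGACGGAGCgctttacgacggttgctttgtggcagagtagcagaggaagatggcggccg
Psmd12 promoter: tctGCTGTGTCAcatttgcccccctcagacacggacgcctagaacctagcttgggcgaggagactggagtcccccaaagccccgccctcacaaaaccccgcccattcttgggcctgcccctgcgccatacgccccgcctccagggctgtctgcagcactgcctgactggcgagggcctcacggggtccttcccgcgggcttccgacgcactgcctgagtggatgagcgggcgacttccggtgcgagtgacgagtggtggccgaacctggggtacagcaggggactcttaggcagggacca
Psmc5 promoter: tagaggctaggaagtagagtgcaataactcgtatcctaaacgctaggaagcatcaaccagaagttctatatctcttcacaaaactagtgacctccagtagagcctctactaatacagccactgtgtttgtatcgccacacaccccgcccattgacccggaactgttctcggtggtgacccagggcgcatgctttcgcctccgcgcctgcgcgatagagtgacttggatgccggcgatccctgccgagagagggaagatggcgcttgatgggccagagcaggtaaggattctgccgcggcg
Psmd8 promoter: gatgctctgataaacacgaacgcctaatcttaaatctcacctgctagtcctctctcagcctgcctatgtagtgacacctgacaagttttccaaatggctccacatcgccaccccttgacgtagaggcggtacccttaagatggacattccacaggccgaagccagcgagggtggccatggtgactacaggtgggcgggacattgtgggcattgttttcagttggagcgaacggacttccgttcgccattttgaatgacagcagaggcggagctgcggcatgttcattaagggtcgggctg

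The antioxidant response element was found in 6 of the 39 member windows (15.4%) and in 12.5% of all 27025 windows. The CCAAT box was found in 14 (35.9%) and in 37.9% of all windows. By role it was in 6 of 11 core windows, 4 of 14 of the regulatory particle and 4 of 14 others. The 6 include Psma1, Psma3 and Psma6, which were at background. These 11 are thus not the same 11 core genes as those compared over mice below. The interferon element was found in 6 (15.4%) and in 8.57% of all, with 1 window taken per gene. The windows of Psmb3 (chr11:97703184-97703483, plus strand) and Psma2 (chr13:14612992-14613291, plus strand) are shown because these core genes moved together with others of the core, as described below. That of Psme1 (chr14:55578244-55578543, plus strand) is shown as an interferon-raised activator, with its element on the opposite strand from base 261.
Psmb3 promoter: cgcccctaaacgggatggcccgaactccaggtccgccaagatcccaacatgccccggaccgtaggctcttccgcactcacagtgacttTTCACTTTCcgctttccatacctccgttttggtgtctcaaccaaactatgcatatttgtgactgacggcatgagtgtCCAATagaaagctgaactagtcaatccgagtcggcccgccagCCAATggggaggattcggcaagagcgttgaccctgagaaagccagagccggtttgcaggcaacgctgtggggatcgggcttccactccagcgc
Psma2 promoter: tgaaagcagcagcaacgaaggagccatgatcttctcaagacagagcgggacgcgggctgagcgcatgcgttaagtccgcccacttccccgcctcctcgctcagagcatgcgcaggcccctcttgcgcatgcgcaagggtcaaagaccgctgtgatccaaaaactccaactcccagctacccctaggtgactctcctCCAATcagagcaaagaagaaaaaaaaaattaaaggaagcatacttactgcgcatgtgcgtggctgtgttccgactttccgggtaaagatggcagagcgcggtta
Psme1 promoter: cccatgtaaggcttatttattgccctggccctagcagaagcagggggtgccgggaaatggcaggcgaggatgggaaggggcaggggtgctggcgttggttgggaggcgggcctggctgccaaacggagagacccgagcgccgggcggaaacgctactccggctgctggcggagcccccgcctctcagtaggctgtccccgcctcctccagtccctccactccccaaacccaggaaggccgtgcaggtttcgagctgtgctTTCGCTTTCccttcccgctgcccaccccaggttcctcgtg

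No proteasome gene passed the test of a difference between females and males. With limma over all 45281 probes, 16 (0.0353%) had a sex difference at an adjusted p under 0.05, and 0 of the 83 member probes did (lowest adjusted p = 0.9996). At an unadjusted p under 0.05 there were 2 of the 83, the core assembly chaperone Psmg3 and the ubiquitin receptor Psmd4. The share of all probes under that cut was not taken, so these 2 are given as a description only. Psmg3 had means of 7.72 (SD 0.31) in females and 7.81 (SD 0.25) in males, and the female minus male difference was -0.09 (standard error 0.04). That of Psmd4 was -0.10 (standard error 0.05). Over all member probes the difference ran from -0.16 to 0.08, with a median of -0.03, beside -0.01 over all probes. For 4 mice both Xist and the Y-linked genes went against the labelled sex, and 0 member probes were called with these mice left out.

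Across mice, the core genes rose and fell together more than the regulatory particle genes did. Correlations were taken between representing probes after the mean of each sex was removed. They are descriptions with no p, since all points share arrays and normalization. Over 205 mice the median r was 0.345 for the 55 pairs within the core (11 genes), 0.0397 for the 105 pairs within the regulatory particle (15 genes) and 0.0468 between core and regulatory particle. For all pairs of 11403 genes above background it was 0.0505. With the 8 arrays left out they were 0.402, 0.0505, 0.0309 and 0.0255, respectively. Within the low and the high number series the core median was 0.327 and 0.447, and that of the regulatory particle 0.0311 and 0.0784. Over all 39 members above background the median was 0.128, and 0.0684 without the 8 arrays. Other complexes had 0.544 (54 cytosolic ribosomal proteins), 0.325 (67 nuclear genes of the respiratory chain), 0.312 (the chaperonin CCT, 7 genes) and 0.206 (73 mitochondrial ribosomal proteins), and 0.566, 0.329, 0.180 and 0.161 without the 8 arrays. With 10 principal components removed, the core, regulatory and between medians were 0.293, 0.158 and 0.173, and that of all genes above background was 0.004. The regulatory particle then lay above the median of all genes, while with all components kept it lay near it. The other complexes, in the order above, had 0.213, 0.207, 0.192 and 0.0930 with 10 components removed. With quantile normalization the core had 0.324 and these complexes 0.281, 0.153, 0.269 and 0.160. Whether the core lay below the cytosolic ribosomal proteins thus depended on the processing.

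Some pairs of members followed each other closely, most of the closest within the core or within the regulatory particle and some across. Without the 8 arrays, 64 of the 741 pairs had an r of 0.5 or more and 47 an r of -0.3 or less. The shares over all pairs of genes above background were not taken, so these counts and the pairs named are descriptions only. Over these mice member pairs ran from -0.759 to 0.839. Pairs of mitochondrial ribosomal proteins ran from -0.728 to 0.926, and those of the respiratory chain from -0.698 to 0.951. The beta ring genes Psmb1 and Psmb3 had the highest r (0.839, and 0.835 with all arrays). The alpha ring genes Psma2 and Psma5 had 0.805. Psma2 was also close to Psmb4 (0.780), to the lid subunit Psmd13 (0.751), to the chaperone Psmd10 (0.745) and to the activator Psme4 (0.734). In the regulatory particle, the ATPase Psmc6 and the deubiquitinase Psmd14 had 0.787, and the ATPase Psmc2 and the base scaffold Psmd1 had 0.766. The beta ring gene Psmb2 stood with the ATPase Psmc4 (0.748), and its r with Psma2 was -0.196. The activator Psme3, a nuclear cap of the core, ran against the group around Psma2, with an r of -0.759 with Psma2 and -0.625 with Psmb1. Psmd11 had -0.607 with Psma2. In the low and high number series the r of Psma2 with Psme3 was -0.787 and -0.770.

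**Figure D4:**
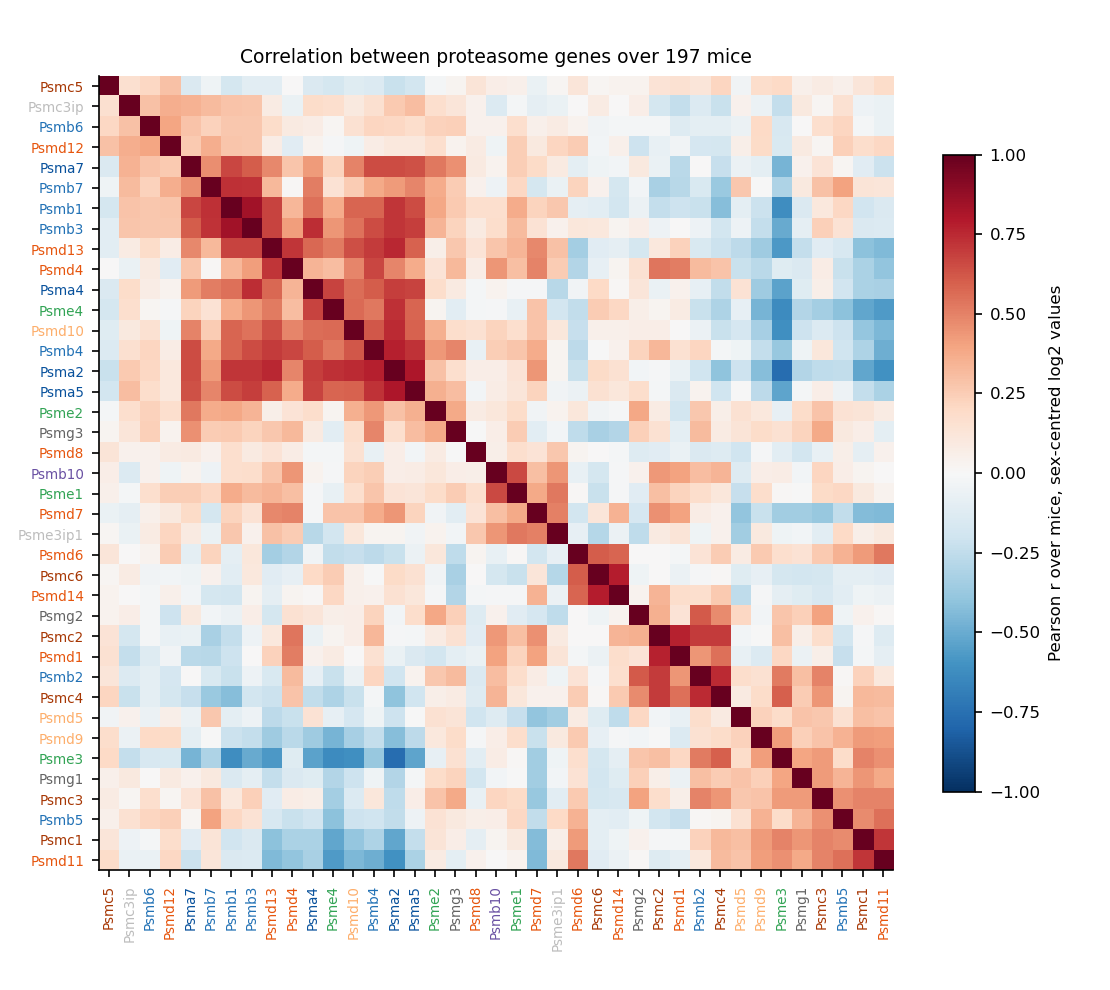
Pearson's r over 197 mice between the 39 members above background, ordered by average linkage of 1 minus r, with names coloured by role (blue core, orange regulatory particle and its chaperones, green activators, purple inducible core, grey others). A red block from Psma7 to Psma5 holds most core genes together with Psmd13, Psmd4, Psmd10 and Psme4, and Psme3 and Psmd11 are blue against it.

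Each member was also set against the mean of the other 38, as z-scores. With all arrays the highest r was that of the activator Psme2 (0.702, and 0.504 without the 8 arrays) and the ATPase Psmc3 (0.659 and 0.421). The order changed without the 8 arrays, when the beta ring genes Psmb3 (0.626 and 0.658) and Psmb4 (0.622 and 0.637) came first. In the core with all arrays, Psmb7 (0.632 and 0.454) was highest in the beta ring and Psma5 (0.450 and 0.544) in the alpha ring, and the lowest were Psmb6 (0.380 and 0.295) and Psma2 (0.178 and 0.401). Without the 8 arrays the lowest were Psmb5 (0.460 and 0.191) and Psma4 (0.385 and 0.371). Among non-ATPase subunits, again with all arrays, the highest was Psmd4 (0.473 and 0.480) and the lowest Psmd7 (-0.0171 and 0.183), a partner of the deubiquitinase. The lowest ATPase was Psmc6 (-0.0375 and 0.000663). Of the regulatory chaperones, Psmd9 had 0.409 and 0.0247 and Psmd5 had 0.0105 and -0.00109. Among activators Psme3 had 0.0305 and -0.177. Of the core assembly chaperones Psmg2 had 0.519 and 0.247 and Psmg1 had 0.376 and 0.133. The 8 arrays carried part of these values: on the mean of all members, 1 of them lay at -3.17 and the next at -1.46 and -1.25, while the lowest other mouse was at -0.61. For Psmd9, Psmd11 (0.379 and -0.00982) and Psmc1 (0.317 and 0.0720) little of the r was left without them.

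Different probes of a gene often disagreed as well. Of 32 pairs of probes of 1 gene, both above background, the median r was 0.489 and the range -0.357 to 0.980. Psmb10 (0.912), Psma7 (0.928) and Psmb6 (0.980) had probes that followed each other. Psmd7 had 3 probes, and the brightest ran against the next brightest (-0.357). Which transcript each probe reads was not analysed here.

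The mean of the core genes moved with other lists than the mean of the regulatory particle genes did. Over 205 mice, the core mean had an r of 0.839 with the respiratory chain list, 0.834 with the mitochondrial ribosomal proteins and 0.645 with the cytosolic ribosomal proteins. The regulatory mean had 0.273, 0.437 and -0.0591 with them. Without the 8 arrays the core values were 0.837, 0.813 and 0.728 and the regulatory ones 0.211, 0.326 and -0.0554. With the chaperonin CCT it was the other way, 0.138 for the core and 0.554 for the regulatory particle (-0.00815 and 0.500 without the 8 arrays). The core and regulatory means had an r of 0.323 with each other, and 0.195 without the 8 arrays. Among cell types, the regulatory mean had an r of 0.528 with the epithelial markers (10 of 10 above background, list mean from 8.33 to 11.41 over mice), and the core mean 0.0138 (0.453 and -0.217 without the 8 arrays). The core mean had its highest marker r with goblet cells (0.399, and 0.438 without the 8 arrays). Array brightness moved with both, with an r of 0.602 for the core mean and 0.422 for the regulatory mean against each array's 95th percentile. The parts of cell makeup and array brightness in these relations were not tested.

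**Figure D5:**
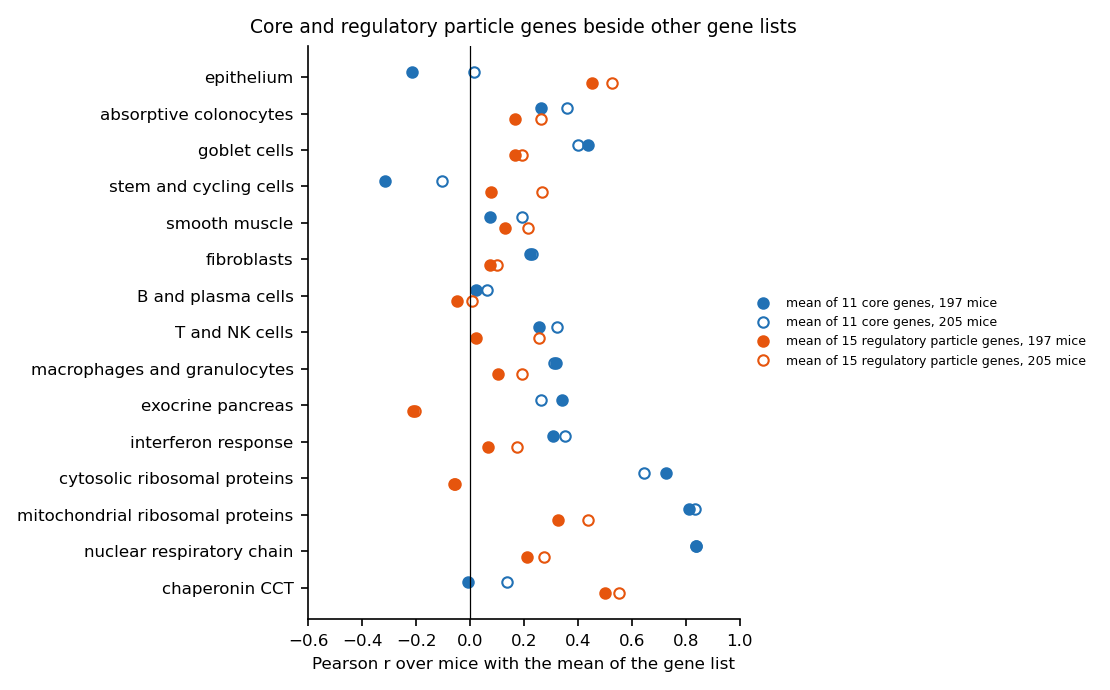
Pearson's r over mice of the mean of 11 core genes (blue) and of 15 regulatory particle genes (orange) with the mean of each marker list or complex. Filled points are without the 8 arrays (197 mice) and open points with them (205 mice). Blue points lie near 0.8 for both mitochondrial lists, and orange points lie to the right of blue for epithelium and the chaperonin CCT.

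The mean level of the proteasome genes had a low line ICC, unlike the 5 genes above. The mean of the 39 members had a line ICC of -0.0194 (95% interval -0.220 to 0.184, 92 lines), the core mean 0.0498 (-0.154 to 0.25) and the regulatory mean 0.0836 (-0.121 to 0.281). They were 0.0997, 0.136 and 0.0508 without the 8 arrays. No test was made of these means.

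The inducible subunit Psmb10 and the activator Psme1 followed each other. Psmb10, which takes the place of Psmb7 in the core of immune and inflamed tissue, ran over the mice from 8.04 (9.54 without the 8 arrays) through a median of 10.57 to 12.05, and Psme1 from 9.16 (10.12) through 10.95 to 12.21. Their r was 0.720 (0.657 without the 8 arrays, 0.681 and 0.753 within the number series). Psme2, the partner of Psme1 in the cap, had 0.388 with Psme1 and 0.187 without the 8 arrays. Its lowest mouse was at the floor of 4 (6.05 without the 8 arrays), its median 6.81 and its highest 7.63. Psmb8 and Psmb9, the other inducible subunits, had an r of 0.424 and 0.443 with Psme1 and of 0.355 and 0.379 with Psmb10. These were 0.387, 0.471, 0.234 and 0.349 without the 8 arrays. With the mean of the interferon response genes (7 of 9 measured above background) Psme1 had 0.579, Psmb10 0.433 and Psme2 0.166 (0.546, 0.358 and 0.0164 without the 8 arrays). The constitutive counterparts Psmb5, Psmb6 and Psmb7 had 0.0939, 0.192 and 0.242 (0.0187, 0.141 and 0.194). The mean of Psmb10, Psme1 and Psme2 had its highest r, 0.668, with the mitochondrial ribosomal proteins (0.610 without the 8 arrays). Among marker lists it had 0.639 (0.469) with T and NK cells (5 of 8 measured above background, list mean from 5.90 to 8.95) and 0.577 (0.357) with epithelium, whose part in these values was not tested. No probe of these 3 genes passed the test of line, with line ICCs of 0.0742 for Psmb10, 0.145 for Psme1 and -0.0625 for Psme2 on the representing probes. With 10 principal components removed both Psmb10 probes passed (0.262 and 0.270, adjusted p = 0.0321 and 0.0268), as did the other probe of Psme1 (0.262, adjusted p = 0.0324).

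Of 28 further genes of the pathway, 18 were measured under their listed or current names, 15 were above background, 1 had a line effect and 0 a sex difference. The gene with a line effect was Psmb9, the inducible subunit that replaces Psmb6 (line ICC 0.466, 0.291 to 0.612, F-test adjusted p = 6e-05). Psmb8 had 0.160 (adjusted p = 0.375). Pomp, the chaperone that matures the core, had a line ICC of -0.0599 and an r of 0.615 with the mean of the members. Nfe2l1 had an r of 0.183 with that mean and Nfe2l2, the related factor of the oxidative stress response, -0.261 (0.0589 and -0.385 without the 8 arrays). The segregase gene Vcp had 0.178. Usp14, a deubiquitinase of the regulatory particle, had a line ICC of 0.203 (adjusted p = 0.226), and 0.305 without the 8 arrays (adjusted p = 0.0249).

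The 10 genes outside the members most like their mean over 205 mice were Rbks (r = 0.783), Eef1akmt1 (0.760), Nsmce1 (0.744), Eif2b3 (0.727), Cd151 (0.727), Dpcd (0.725), Erg28 (0.716), Prkrip1 (0.711), Cox19 (0.710) and Laptm4a (0.709). The median over the 11364 other genes above background was 0.160. Rbks encodes ribokinase, Nsmce1 a subunit of a chromosome maintenance complex and Eif2b3 a translation initiation factor subunit. In the 197 mice Nsmce1 (0.735) came first and the mitochondrial ribosomal protein gene Mrpl46 (0.712) followed, and the median over the other genes was 0.0853. Eef1akmt1 (0.662) and Rbks (0.639) also stayed among the first 10. The rest of the list above had from 0.516 (Erg28) to 0.559 (Cd151) in these mice. Stx8 (0.686), Cox6b1 (0.647), Cops6 (0.644), Ndufs8 (0.640), Grpel1 (0.637) and Ndufv3 (0.634) came in with Mrpl46.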

How the data were processed

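Each mouse gave 1 array. BeadStudio 3.0.19 (also in the submitters' notes) was used by the authors to read and rank-invariant normalize the arrays, without subtracting background. The deposited values are linear intensities, so log2 was taken here with intensities under 16 set to 16 (0.761% of the values). Detection p-values were not used. Gene symbols came from the platform annotation, with 34885 probes of 1 gene, and positions from RefSeq (GRCm38.p6), which held all 47 members. The members and lists were chosen with earlier results of these data known.

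Values were centred on each sex, and the ICC, its 95% interval and an F-test of line came from a one-way analysis of variance over 92 lines. The test of sex was that of limma 3.58.1 in R 4.3.3. Adjusted p-values are Benjamini-Hochberg over 45281 probes. A gene was represented by its brightest probe. Named are all members with a line effect or an ICC of at least 0.3, those with the highest and lowest r per role, those at background, 10 outside genes most like their mean, and fixed pathway genes. The 20 genes most like a called probe, the levels of 8.2, 8.5 and 9, and the comparison by chromosome were chosen after values were seen. Alternatives were a floor of 32, quantile normalization, subtraction of the 5th percentile with an offset of 16, removal of 10 principal components, leaving out the 8 arrays, either number series alone and a limma F-test. After removal of the components the F-test kept its degrees of freedom as before, without counting those removed. Each line has few mice, which limits the precision. Mice of a line may be littermates, so p-values rest on these mice only. Scripts were tested on simulated data. Software was matplotlib 3.10.9, scipy 1.17.1, numpy 2.4.6, pandas 2.3.3 and Python 3.11.15.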

Additional observations from a re-analysis of the deposited data

How the results depend on the processing

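Of the 83 member probes, 6 had a line effect in the reported setting. The count was 11 with the 5th percentile subtracted, 21 with 10 principal components removed and 10 without the 8 arrays with values below 0, and the 6 probes were among them each time. Under those settings 7.45%, 18.1% and 10.2% of all probes were called, against 5.74%, so the count rose with that over the whole array, and the cause was not tested. It was between 5 and 9 under the other settings. Among the called probes, Psmd12 did not pass in the low number series alone (line ICC 0.310) and Psmc3ip did not in the high series (0.0889), each with fewer lines. The 52 other values of the 6 probes kept their side of the threshold. With the line as a replicate block, which pairs the sexes (consensus correlation within lines 0.0383), 0 member probes had a sex difference, as in every other setting run, where 13 to 32 of all probes did. The median r over member pairs ran from 0.0643 to 0.171 over the settings. Psmc3ip and Psme3ip1 left out, an alternative chosen after seeing the data, gave 0.119. Signals near background, such as those of Psmd5, Psmd9, Psme2 and Psmc3ip, limit what their values show.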
